A study of Mus musculus with 6 samples.

Results

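The data described here are the H3K4me3 peaks that lie at the starts of coding genes with little or no measured RNA in untreated mouse embryonic fibroblasts (MEFs). A member peak was shorter than 6000 bp and had the start of at least 1 protein-coding gene within 1000 bp, and each such gene listed in the RNA table had a level below 8.56 deposited units in the untreated library, which is about 0.1 RPKM. By this rule 714 of 11157 peaks were members, and 729 listed coding genes had their starts at these peaks (called member genes below). The members were chosen by their untreated RNA level and their length, so both are given as description and support nothing. A further 7827 peaks under 6000 bp, at the start of at least 1 listed coding gene at or above 8.56 units, served as the comparison peaks.

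The cells were primary wild-type MEFs of a C57BL/6x 129 background from littermate 13.5-day-old embryos, used after 4 passages. Directional libraries of poly(A) RNA, 1 for each time, came from untreated cells and from cells kept in TNFα at 20 ng/ml for 1.5, 6 or 24 hr. The extract protocol in the label of the 24 hr library describes ChIP, while its title and treatment are those of the RNA series, and it was used as the 24 hr RNA library. Chromatin of untreated cells gave 1 H3K4me3 ChIP library and 1 input library. Whether cells of several embryos were mixed is not given in the sources used here. No replicate exists for any condition, so no test was made and a difference between libraries has no replicate check. The study states totals of mapped reads per library, but the reads behind each RNA value are not in the table. Only 45.4% of 2795 low entries of the untreated library had a ratio of its 2 columns within 1% of a ratio of small whole reads, so these reads could not be recovered.

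As a check of the cells, the 11 fibroblast markers were between 73.9 units (Lum) and 44000 units (Col1a1) when untreated, and 10 of the 11 had a peak. The 4 endothelial markers summed to 4.73 units and 4 of the 5 epithelial markers were below 8.56 units, with Krt18 at 41.1. Of the muscle, neural, and cartilage and bone markers, some were above 8.56 units and the rest below. Those above were Des (317 units), Runx2 (204), Sox9 (96.8), Tubb3 (93.3), Sox10 (36.3) and Col2a1 (10.1). The 4 germ cell and pluripotent markers were below 8.56 units. The 6 markers of blood and macrophages were at or above 8.56 units, from 13.4 (Ptprc) to 2260 (Lyz2), and none of the 6 had a peak within 1 kb of its start.

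Trimethylation of lysine 4 of histone H3 is laid down around transcription start sites by the SET1 and MLL methyltransferase complexes. These complexes carry subunits that bind unmethylated CpG, and CpG islands can therefore hold the mark when their gene makes little RNA. In embryonic stem cells many such promoters at developmental genes also carry H3K27me3, which was not measured in this study.

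The label of silent genes fitted the member genes only in part. The untreated level was 0 in both columns for 51 of the 729 member genes and above 0 for 678. The median was 3.89 units with quartiles of 1.51 and 6.32, and 357 member genes lay between 4 and 8.56 units. Among the 7257 coding genes below 8.56 units that had no peak within 1 kb, the median was 0 units, and 57.6% were at 0 in comparison with 7.0% of member genes. The members were therefore peaks at genes of low RNA rather than of no RNA. Across the 4 libraries, 20 member genes were at 0 throughout. One of the 2 untreated columns reached 8.56 units on its own for 29 member genes.

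The base composition of the members ranged from CpG islands to sequence almost free of CpG, and 300 bases are given for the extremes, read from the mm9 genome on the strand of the gene with each CpG in capitals. CpG content was measured as observed over expected, the number of CpG divided by that given by the counts of C and G, in a window reaching 500 bases to each side of the summit. Windows holding annotated exon bases and peaks on 1 chromosome not printed here were passed over, which left 116 of 714 members. Of these 116, the 3 highest ratios belonged to Rb1, a brake on entry into S phase (chr14:73725797-73726096, minus strand, before the start), to Ikzf2, an Ikaros family transcription factor (chr1:69734256-69734555, minus strand, before the start), and to Sgk3, a serine/threonine kinase (chr1:9788430-9788729, plus strand, in an intron).
Rb1: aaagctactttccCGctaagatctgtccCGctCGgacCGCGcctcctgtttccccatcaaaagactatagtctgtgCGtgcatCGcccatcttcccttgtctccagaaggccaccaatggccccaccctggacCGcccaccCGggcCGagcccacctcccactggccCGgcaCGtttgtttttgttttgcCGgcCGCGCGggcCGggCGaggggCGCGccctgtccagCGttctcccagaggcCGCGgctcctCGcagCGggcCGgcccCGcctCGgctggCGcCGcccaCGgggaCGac
Ikzf2: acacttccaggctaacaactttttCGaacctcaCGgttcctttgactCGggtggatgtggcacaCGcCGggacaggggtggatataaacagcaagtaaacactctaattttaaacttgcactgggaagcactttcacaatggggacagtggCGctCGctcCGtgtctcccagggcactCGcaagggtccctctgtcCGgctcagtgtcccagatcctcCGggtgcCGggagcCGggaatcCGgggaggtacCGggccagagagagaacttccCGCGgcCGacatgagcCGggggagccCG
Sgk3: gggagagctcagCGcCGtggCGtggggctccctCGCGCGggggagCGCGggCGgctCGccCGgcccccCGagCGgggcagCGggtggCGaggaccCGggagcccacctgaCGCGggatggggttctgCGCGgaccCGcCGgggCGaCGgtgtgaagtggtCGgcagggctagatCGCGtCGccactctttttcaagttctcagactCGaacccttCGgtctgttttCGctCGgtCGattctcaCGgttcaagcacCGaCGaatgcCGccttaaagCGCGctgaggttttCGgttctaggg

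Of the same 116, the 3 lowest ratios belonged to Samd9l, a gene of the interferon response (chr6:3348683-3348982, minus strand, in an intron), to Lrrn3, a neuronal leucine-rich repeat protein (chr12:42212374-42212673, minus strand, before the start), and to 4930505A04Rik (chr11:30371859-30372158, minus strand, before the start).
Samd9l: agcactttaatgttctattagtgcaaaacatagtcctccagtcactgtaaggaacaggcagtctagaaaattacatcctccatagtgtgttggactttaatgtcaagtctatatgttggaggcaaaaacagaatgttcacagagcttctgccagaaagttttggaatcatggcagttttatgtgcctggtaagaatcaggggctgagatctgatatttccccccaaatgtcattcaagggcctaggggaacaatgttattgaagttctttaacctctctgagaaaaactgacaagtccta
Lrrn3: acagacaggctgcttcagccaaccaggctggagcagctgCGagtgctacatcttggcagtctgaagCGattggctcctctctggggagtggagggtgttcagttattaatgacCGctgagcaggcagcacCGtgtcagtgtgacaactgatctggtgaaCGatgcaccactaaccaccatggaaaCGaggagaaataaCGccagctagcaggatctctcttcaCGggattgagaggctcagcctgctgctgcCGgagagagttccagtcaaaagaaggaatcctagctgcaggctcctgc
4930505A04Rik: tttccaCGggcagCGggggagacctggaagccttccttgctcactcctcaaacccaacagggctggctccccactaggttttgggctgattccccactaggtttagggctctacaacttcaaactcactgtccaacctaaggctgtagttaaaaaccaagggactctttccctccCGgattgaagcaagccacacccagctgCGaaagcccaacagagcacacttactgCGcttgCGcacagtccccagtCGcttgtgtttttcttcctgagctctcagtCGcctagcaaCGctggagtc

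The Rb1 stretch held 32 CpG, that of Ikzf2 20 and that of Sgk3 40. The Lrrn3 and 4930505A04Rik stretches held 9 each and that of Samd9l held 0. Over the wider window the ratio was 1.12 at Rb1 with 123 CpG and 0.0633 at Samd9l with 2 CpG. The peak at Rb1 had 1132 tags and a fold enrichment of 25.94, whereas the peak at Samd9l had 155 tags and a fold enrichment of 24.49. The 2 peaks thus had a similar fold enrichment at very different CpG content and tag number. The untreated levels of these genes were 7.65 units (Rb1), 7.0 (Ikzf2), 2.27 (Sgk3), 8.11 (Samd9l), 4.46 (Lrrn3) and 0 (4930505A04Rik).

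The gene with the highest level after TNFα among the members was Tnfaip3, which encodes the ubiquitin-editing enzyme A20, an inhibitor of NF-κB. The 300 bases before its annotated start (chr10:18735464-18735763, minus strand) held 6 CpG, and the window around its summit had a ratio of 0.73 with 72 CpG.
Tnfaip3: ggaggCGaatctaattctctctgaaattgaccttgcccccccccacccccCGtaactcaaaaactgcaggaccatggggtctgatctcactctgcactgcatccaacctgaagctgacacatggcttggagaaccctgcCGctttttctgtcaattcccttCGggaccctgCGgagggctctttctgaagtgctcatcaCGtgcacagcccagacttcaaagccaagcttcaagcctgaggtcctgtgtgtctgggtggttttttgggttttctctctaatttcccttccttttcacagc

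Member peaks were smaller and weaker than the comparison peaks. They had a median of 508 tags (from 60 to 1912) against 1111 tags in the comparison peaks. Their median length was 2238 bp against 3276 bp, which was limited by the rule in both groups. Tag density, the number of tags per kb of peak, had a median of 231 in member peaks (95% interval of the median 220 to 240) and 339 in comparison peaks (336 to 341). Only 111 of 714 member peaks (15.5%) reached the median density of the comparison peaks. The fold enrichment over the local background had a median of 34.2 (32.4 to 36.2) against 48.0 (47.3 to 48.7), and 190 member peaks (26.6%) reached the median of the comparison peaks. The intervals cover the spread between peaks of 1 ChIP library and not that between cultures. The deposited list held no peak with a fold enrichment under 20, so a gene without a peak may still have carried some H3K4me3.

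The density rose with the RNA level also within the members. At the 50 peaks whose genes were all at 0 the median density was 137 tags per kb (128 to 169). It was 161 at 92 peaks with a highest level of up to 1 unit, 183 at 68 peaks of 1 to 2 units, 236 at 147 peaks of 2 to 4 units and 265 at 357 peaks of 4 to 8.56 units. Comparison peaks of 8.56 to 85.6 units had 330 and those over 85.6 units had 346. The order of the medians thus followed the order of the RNA levels through all 7 groups, although the boxes of neighbouring groups overlapped. The fold enrichment had medians of 29.6, 28.4, 29.0, 32.6 and 38.3 in the same 5 member groups, so that the 3 lowest groups did not differ beyond their intervals.

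**Figure D1:**
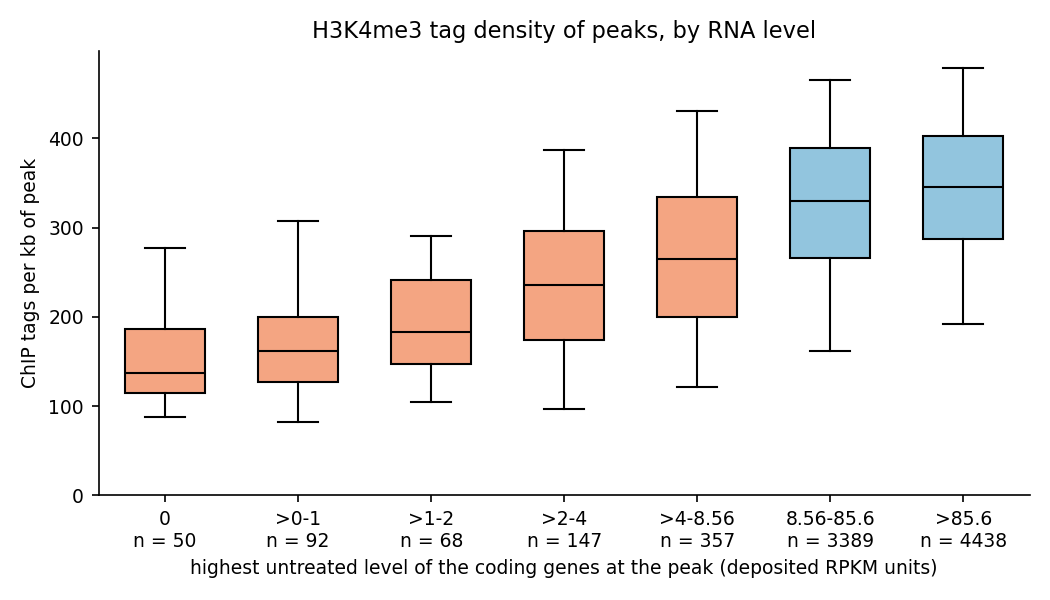
H3K4me3 ChIP tags per kb of peak (vertical axis) for peaks grouped by the highest untreated level of their coding genes, in deposited RPKM units. Boxes are quartiles with the median as a line and whiskers from the 5th to the 95th percentile of peaks, orange for the 5 groups of member peaks and blue for the 2 groups of comparison peaks; the median climbs from 137 at level 0 to 346 above 85.6 units.

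Among the 10 members with the highest fold enrichment, 3 were at genes of the Zfp family of zinc finger proteins. Zfp763 had the highest value, 169, with 785 tags in 2295 bp at chr17:33168870-33171164, and its untreated level was 3.56 units in both columns. Bbs5, a subunit of the BBSome of the primary cilium, had a fold enrichment of 141 with 807 tags and a level of 5.48 units. Fastkd1, a mitochondrial protein, had 136 with 716 tags, and Bub1, a kinase of the spindle checkpoint, had 134 with 622 tags. The other 6 of the 10 highest were Zfp420 (133), Zfp712 (128), Zufsp (125), Nudt12 (118), Gtpbp10 (112) and Spopl (112). Their untreated levels lay between 1.24 units (Zfp712) and 7.89 units (Fastkd1). None of the 10 was at 0.

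The 5 members with the lowest fold enrichment lay at the edge of the deposited list. They were Qpct (20.0), Ramp2 (20.1), Tmem17 (20.1), 5430407P10Rik (20.1) and 4921507P07Rik (20.1). Ramp2, which modifies receptors of the adrenomedullin family, had 193 tags, for which the exact Poisson interval was 167 to 222. Tmem17, a protein of the ciliary transition zone, had 561 tags at nearly the same fold enrichment. Hence fold enrichment and tag number ranked these peaks differently.

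The member peak with the most tags covered the starts of Tiparp, a mono-ADP-ribosyltransferase, and of 4931440P22Rik on the opposite strand, and had 1912 tags in 3789 bp. It was followed by the peaks at Snx13 (1858 tags), Tmtc2 (1822), Otud1 (1790) and Rfx3 (1753), the last encoding a transcription factor of ciliated cells. The levels of these genes were 3.53 units (Tiparp), 8.03 (Snx13), 8.52 (Tmtc2), 3.38 (Otud1) and 4.33 (Rfx3). These densities of 362 to 505 tags per kb were above the median of the comparison peaks although the RNA of the genes was low.

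At the 50 member peaks whose listed genes were all at 0 in the untreated library, the median was 238 tags with quartiles of 185 and 403, below the 508 tags of all members. Their tags ranged from 78 to 1223 and their fold enrichment from 20.1 to 65.9. Dazl, an RNA-binding protein of germ cells, and Mesp1, a factor of early mesoderm, were also at 0 when untreated, with 163 and 188 tags. Dazl was at 0.309 units at 1.5 hr and at 0 at 6 and 24 hr, and Mesp1 at 0.847 units at 1.5 hr and at 0 later. Fgf20, a fibroblast growth factor, was at 0 in all 4 libraries, but its peak of 1419 tags was shared with Efha2, whose start lay on the opposite strand and whose levels were 6.71, 30.4, 10.9 and 22.0 units. Peaks at genes listed at 0 thus mostly had fewer tags than the median member.

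The values on either side of the limits of the rule are as follows. The members closest to 8.56 units were Dennd5b (8.556), Tmtc2 (8.517) and Nsun6 (8.515), and the peaks just above it were those of 0610007P08Rik (8.566), Ppm1k (8.595) and Zfp248 (8.608). The first 3 had 1273 to 1822 tags and the last 3 had 955 to 1209. The longest members were the peaks of Ikzf2 (5790 bp), Gdnf (5695 bp) and Ereg (5479 bp). Only 5 further peaks met the rule but for their length, and the 3 shortest of these lay at Nr4a3 (6596 bp), E130114P18Rik (6789 bp) and Pcdh10 (6820 bp).

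The summits of the members lay close to the start. The start of a listed coding gene lay inside the peak for 695 of 714 members (97.3%) and for 98.8% of comparison peaks. The summit lay within 500 bases of the nearest listed start for 82.9% of members and 76.7% of comparison peaks. The median summit was 181 bases downstream of the start in members (quartiles 90 and 328) and 280 bases downstream in comparison peaks (186 and 463). It was downstream for 83.6% and 92.8% of them, respectively. A summit over 1000 bases away was found for 37 members (5.18%), among them the Ikzf2 peak shown above.

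Most members had 1 listed coding gene at the peak (696) and 18 had 2. Among these 18 were the peak at the starts of Slc30a1, a zinc exporter, and 1700034H15Rik with 1437 tags, and that at Sirt1, a deacetylase, and Dnajc12 with 477 tags. Another, with 354 tags, lay at Sarm1 and Vtn, the gene of vitronectin. Of the genes named further on, Dtwd1, 2810021B07Rik and Cd164l2 also shared their peak with another listed gene. The 2 genes at such a peak share their tags and cannot be counted as 2 measurements. Starts of other genes lay within 1 kb of 82 members (11.5%), of which 62 (8.68%) had the start of a long noncoding RNA, and 59 of these 62 were on the strand opposite to the member gene. In the comparison peaks 7.40% had the start of a long noncoding RNA. The share of members with a noncoding neighbour was thus near that of the comparison peaks.

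Of the 84 other genes at member peaks, 8 were listed in the RNA table. The 5 with the highest untreated level were Mir1901 at the peak of Cables1 (21.7 units), 9130206I24Rik at the peak of Foxd2 (15.9), 1700065D16Rik at Atr (1.88), the pseudogene Cyp4f41-ps at Zfp472 (1.70) and 4933406I18Rik at Pde3b (1.67). The first 2 alone were at or above 8.56 units. In 9130206I24Rik the 2 columns were close when untreated (14.8 and 17) and apart at 6 hr (7.76 and 29.2). Mir1901 had 0 and 20.1 units in the 2 columns at 1.5 hr, so its level is uncertain.

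A coding start with RNA nearby was rare around members. A coding gene at or above 8.56 units started within 10 kb of 4.76% of member peaks. Counted from the gene's own start, this held for 29 of 729 member genes (3.98%, exact binomial interval 2.68 to 5.66) and for 391 of 7257 coding genes below 8.56 units without a peak (5.39%, 4.88 to 5.93). Members in which a neighbour had RNA were removed by the rule itself where that start lay within 1 kb. Of the 936 coding genes below 8.56 units with any peak, 207 were not member genes. Of these, 197 had only shorter peaks, shared with a gene at or above the level, and 10 had a peak of 6000 bp or longer. A long peak could be shared as well, and without the length limit there were 734 member genes in place of 729. Members lay on 20 chromosomes. Chromosome 3 held 7.42% of members and 4.84% of comparison peaks, and the X chromosome held 37 members (5.18%) and 2.94%. The share of members was the lower on chromosome 7 (4.90% and 7.38%) and chromosome 11 (5.88% and 8.13%).

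CpG content differed widely between the marked and the unmarked genes of low RNA. Within 500 bases to each side of the annotated start, the ratio of observed to expected CpG had a median of 0.686 at member genes (quartiles 0.554 and 0.804) and 0.221 at coding genes below 8.56 units without a peak (0.131 and 0.410). At genes at or above 8.56 units with a peak it was 0.758. A start was called CpG-rich when this window had a GC content of at least 55% and a ratio of at least 0.65. By this measure 344 of 729 member genes (47.2%, 43.5 to 50.9) were CpG-rich, in contrast to 697 of 7257 unmarked genes of low RNA (9.60%, 8.94 to 10.3) and 63.7% of 9406 marked genes with RNA. The median of the member genes was thus closer to that of the marked genes with RNA than to that of the unmarked genes, whose untreated levels were lower.

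**Figure D2:**
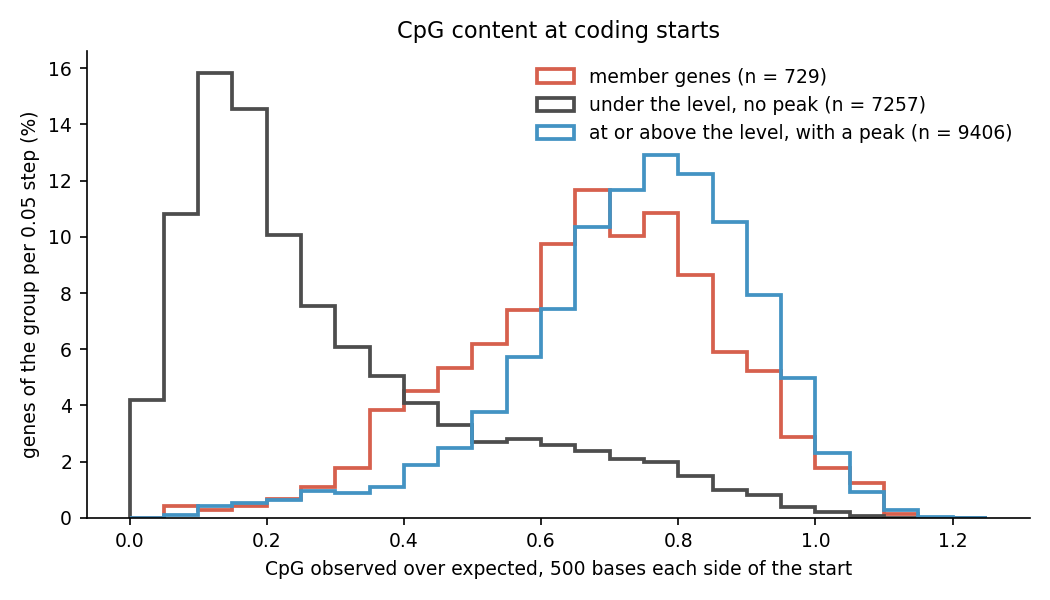
Distribution of the CpG observed over expected ratio within 500 bases to each side of coding starts, as the percentage of genes of each group per step of 0.05. Member genes (red, median 0.686) lie close to genes at or above 8.56 units with a peak (blue, median 0.758), and most genes below 8.56 units without a peak (grey, median 0.221) lie to the left of both.

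RNA level and CpG content each went with the presence of a peak. Of the 8193 coding genes below 8.56 units, 8.90% were member genes and 11.4% had any peak. A peak was present at 39.5% of the 1152 with a CpG-rich start (36.7 to 42.4) and at 6.83% of the 7041 others (6.25 to 7.45). At level 0 these shares were 12.8% (27 of 211) and 1.19% (48 of 4042). Between 4 and 8.56 units they were 66.5% (234 of 352) and 28.5% (212 of 743). Above 85.6 units they were 96.6% and 76.1%. Within each of the 7 levels the CpG-rich starts had the larger share, and their intervals did not overlap those of the other starts. Genes that share a promoter or a cluster are not independent, so the intervals cover counting error only.

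**Figure D3:**
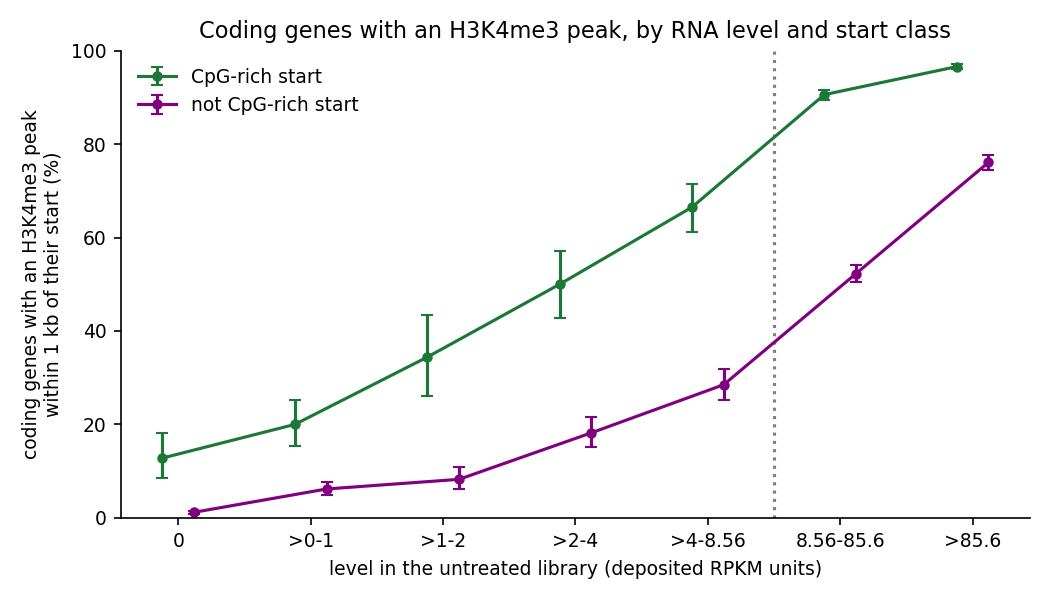
Percentage of coding genes with an H3K4me3 peak within 1 kb of their start (vertical axis) by level in the untreated library in deposited RPKM units, for CpG-rich starts (green) and other starts (purple). Bars are exact 95% binomial intervals and the dotted line is the level of 8.56 units that defines the members; at level 0 the shares are 12.8% and 1.19%, and above 85.6 units 96.6% and 76.1%.

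Around the summit, 388 of 714 member peaks (54.3%, 50.6 to 58.0) were CpG-rich and 62.6% of comparison peaks. The 388 members with a CpG-rich centre had a median of 255 tags per kb and the 326 others had 195, whereas the fold enrichment was not higher in the former, at 32.7 against 36.2. The share depended on the window. It was 67.9% with 250 bases on each side of the summit and 14.3% over the whole peak.

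Short sequence motifs were counted on both strands in the 300 bases from 250 before to 50 after the start, and none of the motifs contains another. The TATA box letters TATAAA were found at 8.92% of member genes, at 22.5% of unmarked genes of low RNA and at 12.9% of all 19910 listed coding genes. The GC box GGGCGG was found at 60.2%, 20.6% and 46.7%, respectively. The ETS core CCGGAAG was found at 11.5% of member genes, 2.05% of unmarked genes and 11.5% of all. The cyclic AMP response element TGACGTCA was found at 4.25%, 1.06% and 2.46%, and the NRF1 core GCATGCGC at 3.29%, 1.14% and 3.59%. CCAAT, which holds no CpG, was found at 38.4%, 38.5% and 38.4%. Thus the 4 motifs that hold a CpG were more frequent at member genes than at unmarked genes of low RNA, TATAAA was less frequent, and CCAAT was about as frequent. A match is a description of letters and the base composition of the groups differed.

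The members covered gene groups unequally. Zinc finger genes had the largest share, with 52 member genes among 107 genes of the list below 8.56 units (48.6%), against 8.90% of all coding genes below the level. Their untreated levels had a median of 3.17 units over the 107 genes, against 0 over all coding genes below the level. Of all coding genes between 2 and 4 units 155 of 776 were member genes, and between 4 and 8.56 units 357 of 1095. The fold enrichment at the 52 member peaks had a median of 54.8 (45.2 to 64.6) against 34.2 over all members. The 4 with the highest fold enrichment were Zfp763, Zfp420, Zfp712 and Zfp759 (109). Only 11 of the 52 peaks (21.2%) were CpG-rich at the centre, with a median GC content of 51.6%. Most of these genes are KRAB zinc fingers, repressors that lie in clusters of similar copies, so the assignment of their reads is uncertain.

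Homeobox genes outside the Hox clusters and other developmental factors had few members. Of 138 such homeobox genes below the level, with a median untreated level of 0, 50 were CpG-rich at the start, and 5 were member genes (3.62%). These were Dlx2 (fold enrichment 41.6, untreated level 6.10 units), Otx1 (40.7, 0.336 units), Prox1 (33.6, 1.82 units), Dlx5 (22.7, 3.70 units) and Pou3f4 (22.3, 3.41 units). Among 112 genes of other developmental factors, with a median untreated level of 0.149 units, 47 were CpG-rich and 6 were member genes (5.36%), led by Hey2 (67.0), Rorb (54.4), Sox8 (30.1) and Foxd2 (27.8). Hey2 is a Notch target of the heart and vessels and Sox8 a factor of the neural crest and testis. In both groups the share of member genes was below that of all coding genes under the level, while the share of CpG-rich starts (36.2% and 42.0%) was above the 14.1% of all such genes. At level 0, where many of these genes lay, a peak was present at 12.8% of all coding genes with a CpG-rich start.

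Secreted signals of development and their receptors had 10 member genes among 68 (14.7%). The 4 highest by fold enrichment were Fgf20 (68.5, at the peak shared with Efha2), Fgf5 (42.3), the Notch ligand Dll1 (32.1) and the Bmp family ligand Gdf6 (31.1). Genes of neuronal channels, receptors and synapses had 30 among 262 (11.5%). Among the highest were the glycine receptor subunit Glrb (42.5, untreated level 7.69 units), the calcium channel subunit Cacna2d3 (41.2, 1.79 units) and the amino acid transporter Slc6a15 (40.1, 0.815 units). Neuronal genes with nearly no RNA, such as Kcna4 (0.196 units) and Syt1 (0.307 units), had fold enrichments of 21.3 and 31.7. The shares of both groups were above that of all coding genes under the level, and no test was made of either. Their untreated levels had medians of 1.09 and 0.283 units, against 0 over all such genes.

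Few inflammatory and blood cell genes below the level were member genes, as was the case for all coding genes below the level (8.90%). Of 99 chemokines, cytokines and inflammatory enzymes below the level, 1 had a CpG-rich start and 6 were member genes (6.06%). These were Mmp16 (25.5), Il7 (23.9), the RANK ligand gene Tnfsf11 (22.4), Il17d (21.3), and Icam4 and Icam5 at 1 shared peak (21.1). The fold enrichments of these 5 peaks lay below the median of the members. Of 159 blood and immune genes 4 were member genes (2.52%), namely Il20ra (67.5), Tlr3 (40.5), Il1rapl1 (36.5) and Cd164l2 (34.0), and the list matched the last 2 by name although Il1rapl1 is known as a synaptic gene. Of 150 keratin and epithelial genes 3 were member genes (2.0%), the cornified envelope gene Lor (40.8), Cldn23 (29.6) and Grhl1 (29.3).

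In the germ cell list 5 of 149 genes were member genes (3.36%), Adam5 (83.3), Adam22 (51.1), Mei4 (49.0), Dazl (28.4) and Boll (20.9). Adam22 was matched by its family name and is known from synapses. Solute carriers had 10 of 142 (7.04%), with Slc35a3 (85.5), Slc22a15 (55.1), Slc30a1 (38.6) and Slc35f2 (28.9) the highest. No olfactory or vomeronasal receptor of 1401 below the level, no clustered protocadherin of 20 and no replication-dependent histone gene of 2 was a member gene. The receptors had 1 CpG-rich start among 1401 and a median level of 0. Of the cell type markers, the endothelial receptor Kdr (643 tags, 2.93 units) and Dazl were member genes.

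The RNA of member genes after TNFα was measured in libraries the rule did not use. At 1.5 hr 267 of 729 member genes (36.6%) were at or above 8.56 units, at 6 hr 50 (6.86%) and at 24 hr 202 (27.7%). Of all 8193 coding genes below the level when untreated, 7.21% were at or above it at 1.5 hr, 1.86% at 6 hr and 5.39% at 24 hr. In genes without a peak these shares were 3.64%, 1.24% and 2.60%. The member genes began closer to the level, and for this reason the comparison was made within groups of like untreated level. All libraries were set against a single untreated library, and genes selected for a low value in one library tend to be higher in others.

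Between 4 and 8.56 units, 230 of 357 member genes (64.4%, 59.2 to 69.4) and 177 of 649 unmarked genes (27.3%, 23.9 to 30.9) were at or above 8.56 units at 1.5 hr. At 24 hr the shares in this group were 50.7% (45.4 to 56.0) and 19.4% (16.4 to 22.7), and at 6 hr 12.6% (9.34 to 16.5) and 8.17% (6.18 to 10.5). The median untreated levels were 6.43 units in member genes and 5.75 in unmarked genes, so the groups were not fully matched. Between 2 and 4 units the shares at 1.5 hr were 20.6% (14.6 to 27.9) and 9.08% (6.85 to 11.7), and at 24 hr they were 9.68% and 6.11% with overlapping intervals. At 0 units none of 51 member genes and 4 of 4178 unmarked genes reached the level at 1.5 hr. Between 4 and 8.56 units, marked genes therefore passed the level more often than unmarked genes at 1.5 and 24 hr, in unscaled values. Their intervals overlapped at 6 hr, but that library was low as a whole (scaling factor 1.66 by the median of ratios). Scaled shares of the 2 groups were not compared. In the lower groups the intervals overlapped except between 2 and 4 units at 1.5 hr. The intervals cover counting error over genes of 1 library per time, so an overlap does not show that the groups were alike.

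**Figure D4:**
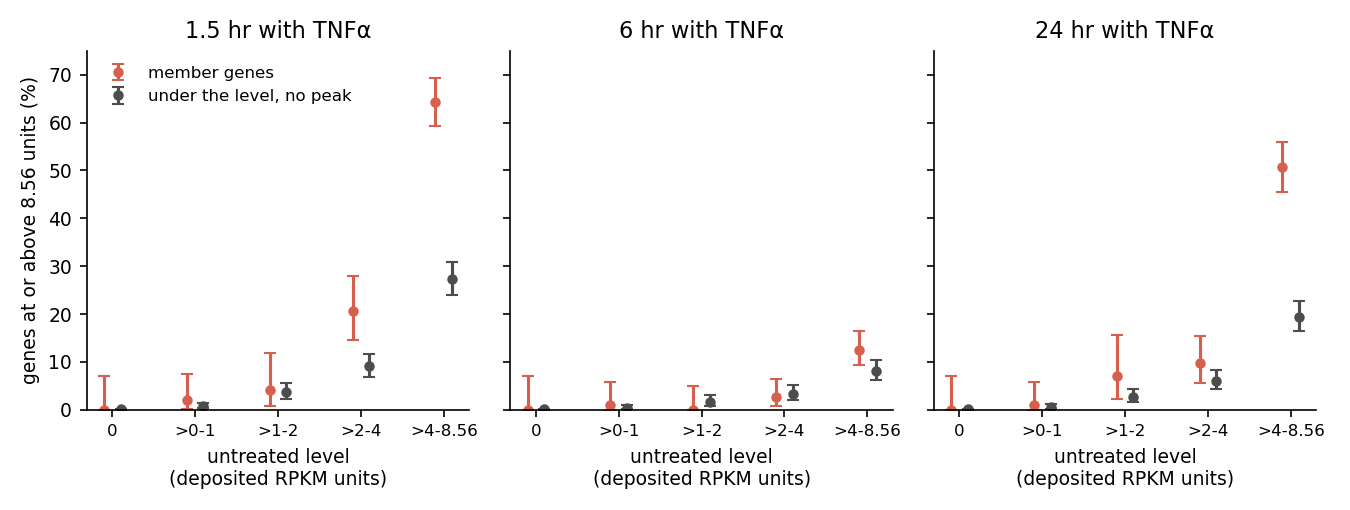
Percentage of genes at or above 8.56 deposited RPKM units at 1.5, 6 and 24 hr of TNFα (3 panels), by untreated level, for member genes (red) and coding genes below the level without a peak (grey). Points are shares with exact 95% binomial intervals over genes; between 4 and 8.56 units the red and grey points are 64.4% and 27.3% at 1.5 hr, 12.6% and 8.17% at 6 hr, and 50.7% and 19.4% at 24 hr.

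The direction depended on the scaling of the libraries. Among 600 member genes above 0 in every library, 474 were higher at 1.5 hr than when untreated, 200 at 6 hr and 405 at 24 hr, with medians of 0.87, -0.47 and 0.45 on the log2 scale. The factors that bring the libraries to the untreated one by the median of ratios were 0.822, 1.66 and 1.01, and after this scaling the medians were 0.59, 0.26 and 0.47. The fall at 6 hr was thus lost on scaling. In the 1625 of 7257 unmarked genes above 0 in every library the scaled medians were -0.31, 0.01 and -0.34. This filter kept 600 of 729 member genes, and the 2 groups were not matched by untreated level, so their medians are not a like comparison. The number of member genes at or above 8.56 units at 6 hr was 173 when scaled to the summed values and 159 by the median of ratios, in place of 50. At 1.5 hr it was 225 and 213, and at 24 hr 211 and 206. The 6 macrophage markers summed to 3240, 15900, 3030 and 7720 units in the untreated, 1.5, 6 and 24 hr libraries. Most of this came from Lyz2, with 2260, 14700, 2690 and 7190 units. The sum was thus high in the same 2 libraries as the member genes, but not every marker was. Ptprc, Emr1 and Itgam were also above their untreated level at 1.5 and 24 hr. Csf1r (295, 287, 90.1 and 124 units) was below its untreated level at both times, and Cd68 (605, 823, 202 and 312) at 24 hr. The part of these markers in the result was not tested. In such bulk RNA fewer cells of a type and less RNA per cell cannot be told apart.

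A single member gene, Tnfaip3, reached 85.6 units, 10 times the level, after TNFα. Its columns were 7.27 and 6.99 units when untreated, 398 and 401 at 1.5 hr, 72.3 and 69.4 at 6 hr, and 152 and 146 at 24 hr. All 3 treated libraries were far above the untreated one in both columns, by 5.81 on the log2 scale at 1.5 hr. Its peak in untreated cells had 1061 tags in 3734 bp and a fold enrichment of 45.5. The peak was called in cells that had received no TNFα.

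Of all coding genes below 8.56 units, 16 (0.195%) reached 85.6 units in at least 1 TNFα library, and the other 15 had no H3K4me3 peak within 1 kb when untreated. Of all 8193 coding genes below 8.56 units 88.6% had no peak, but 4253 of them were at 0 when untreated. Most of the 16 began between 4 and 8.56 units, where 446 of 1095 genes (40.7%) had a peak. The difference was not tested. Among the 15 were the chemokine Cxcl10, the acute phase gene Saa3 and Gbp1, picked here because their levels were the highest. Cxcl10 had 7.64 units untreated and columns of 769 and 755 at 1.5 hr. Saa3 had 3.52 units untreated and 774 at 24 hr, and Gbp1 7.57 untreated and 322 at 1.5 hr. In 14 of the 15 the start was not CpG-rich, beside 90.4% of all coding genes below the level without a peak. Between 4 and 8.56 units 743 of 1095 genes, with or without a peak, had a start that was not CpG-rich. The ratios were 0.401 (Cxcl10), 0.187 (Saa3) and 0.0589 (Gbp1). The start of Tnfaip3 was CpG-rich (0.722).

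The next 9 member genes by their level after TNFα stayed below 85.6 units. Samd9l had 8.11, 78.6, 23.9 and 53.0 units in the untreated, 1.5, 6 and 24 hr libraries, from a peak of only 155 tags. Wnt11, a ligand of noncanonical Wnt signalling, had 8.30, 73.0, 24.2 and 28.9 units. Gch1, the first enzyme of tetrahydrobiopterin synthesis, had 3.13, 51.0, 8.82 and 35.6 units, the largest ratio of these 9 at 4.02 on the log2 scale.

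Rsl1, a KRAB zinc finger gene, had 7.12, 55.7, 10.4 and 36.6 units, and Nipal1 had 7.34, 54.8, 11.6 and 40.8. Dtwd1 reached 50.1, 2810021B07Rik 43.6 and Nat2, an arylamine acetyltransferase, 41.2 units at 1.5 hr, while 4930583H14Rik had its highest level at 24 hr (47.8 units). In each of these 10 genes the 1.5 hr and 24 hr libraries were above the 6 hr library, which is also the order of the whole libraries that the scaling factors above give. The tags at their peaks ranged from 155 (Samd9l) to 1170 (2810021B07Rik), so that a strong peak in untreated cells was not common to them.

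**Figure D5:**
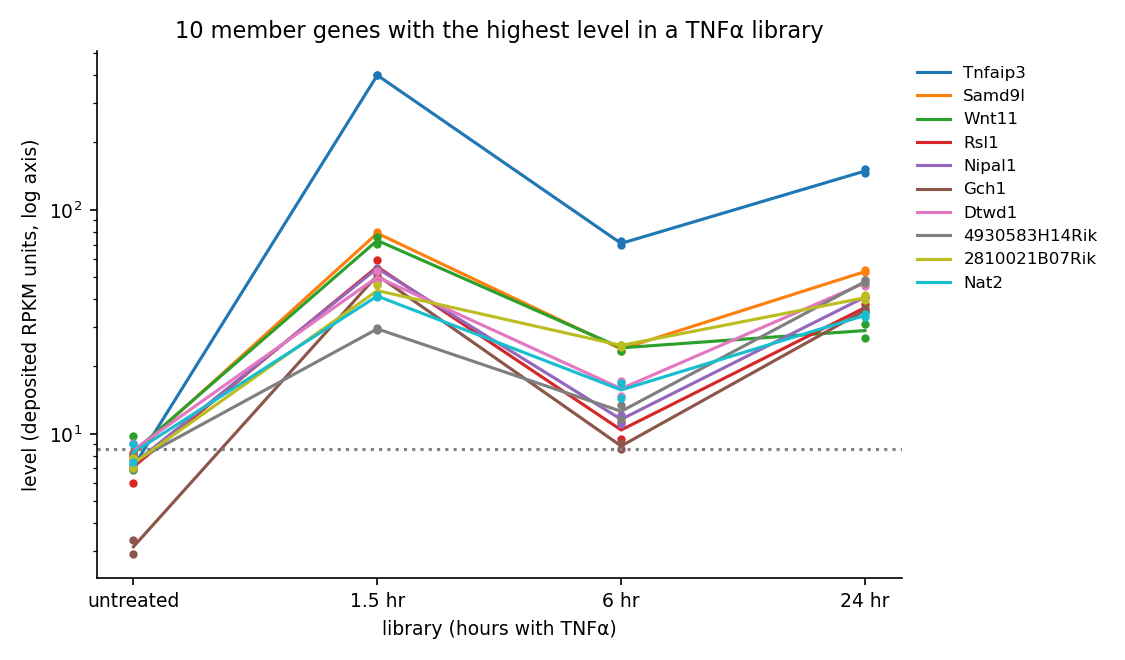
Level in deposited RPKM units (log axis) of the 10 member genes with the highest level in a TNFα library, in the untreated library and at 1.5, 6 and 24 hr. Lines join the means of the 2 columns of each library, points are the columns, and the dotted line is 8.56 units; Tnfaip3 reaches 399 units at 1.5 hr and the other 9 stay below 85.6 units.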

How the data were processed

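Per the paper's methods, the authors aligned the RNA reads to mm9 by TopHat, and a script of their own gave the RPKM of each RefSeq transcript. In the values deposited, about 85.6 units make 1 RPKM, and each library has 2 columns whose difference is not explained, of which the mean was used. For the ChIP data the authors used Bowtie, and MACS for the peaks, from 1 ChIP and 1 input library. The deposited peak list gives a count of tags, a fold enrichment ratio, a score from the logarithm of the p, and an FDR in percent.

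Here the row with the highest untreated level was kept per symbol, and gene starts were taken from GENCODE M1 on NCBIM37 (mm9), where 19910 of 22238 coding names matched the table. CpG content was read from that genome. Medians have order-statistic intervals and shares exact Clopper-Pearson intervals, both 95% and covering counting error only. No test was made, with 1 library per condition. The member search and the CpG count were tested on simulated data. The members, the gene lists and the named genes were chosen with earlier results of these data known. The named genes were those highest and lowest in fold enrichment, tags or level after TNFα, the highest of each list, and those at the limits. The homeobox list was corrected after its matches were seen, and the motifs were chosen then. Some genes that this choice named are not reported here. Python 3.11 was used. Alternatives changed the level, the columns, the rows, the distance, the length limit, the peak filter, the library scaling and the CpG window.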

Additional observations from a re-analysis of the deposited data

How the results depend on the processing

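Each of 15 results was recomputed under alternatives of 1 choice each, 177 values in all, of which 136 stayed within 1.5 times the count or within the 95% interval of the share or median. The level of 8.56 units mattered most, by the construction of the rule. With a level of 4.28 units there were 389 peaks and 390 genes (5.43% of low coding genes), with medians of 30.8 in fold enrichment, 192 tags per kb and 2060 bp. The genes at or above 8.56 units then numbered 47, 5 and 30 at 1.5, 6 and 24 hr and 0 at 10 times the level, 48 peaks had another start and 83 genes were in a list. With a level of 17.12 units there were 1298 peaks and 1340 genes (14.2%), with medians of 38.4, 262 tags per kb, 2440 bp and a CpG ratio of 0.728. The genes at or above 8.56 units were 802, 378 and 709, with 17 at 10 times the level, 155 peaks with another start and 209 genes in a list, and many of these genes were above 8.56 units already. A fold enrichment of at least 30 left 429 peaks and 443 genes (5.41%), with medians of 44.6, 264 tags per kb and 2330 bp, 48 peaks with another start and 81 genes in a list.

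Scaling to the summed values gave 173 and the median of ratios 159 genes at 6 hr in place of 50. The R1 column alone gave 2 genes at 10 times the level. The CpG ratio was 0.768 with 250 bases each side and 0.586 over the whole peak, and the share of CpG-rich centres 67.9% and 14.3%. Starts of all transcripts, an alternative chosen after seeing the data, gave a share of 9.58%. The R2 column, the mean of rows, a start inside the peak or within 5000 bp, no length limit and an FDR of at most 1% changed none of the 15 results beyond these bounds. No paired analysis was possible because each condition had 1 library. Tags per peak are limited by 1 ChIP library, and the reads behind each RNA value are not in the table.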

Other observations

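The members held 27 genes of mitosis, DNA replication, DNA repair and the cell cycle. These were picked by name after their values had been seen, so neither their number nor their direction of change is a result. Their median level was 5.76 units when untreated, 12.3 at 1.5 hr, 4.29 at 6 hr and 9.44 at 24 hr. All 27 were higher at 1.5 hr than when untreated, 9 at 6 hr and 26 at 24 hr, in unscaled values of 1 library each. Of the 600 member genes above 0 in every library, 474, 200 and 405 were higher at these times. The spindle checkpoint kinase Bub1 had 7.18, 30.6, 6.30 and 19.7 units with a fold enrichment of 134. The exonuclease Exo1 had 3.86, 10.2, 3.52 and 7.38 units with a fold enrichment of 109. The repair polymerase Polq had 7.07, 12, 2.93 and 6.47 units with a fold enrichment of 105. The checkpoint kinase Atr had 5.75, 24.1, 9.96 and 19.2 units and 988 tags. Brca2, a mediator of homologous recombination, had 5.91, 10.1, 1.71 and 7.40 units and 637 tags.

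In 2 of the 15 genes without a peak that reached 85.6 units, the 2 columns of the library disagreed. Nanog had 182 and 3.26 units at 1.5 hr, and Lhx5 had 334 and 90.6 units at 6 hr.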
